A study of Mus musculus with 21 samples.

Results

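The right, injured brain hemisphere of vehicle-treated mice was compared between day 28 and day 7 after traumatic brain injury (TBI). The 6 samples, of 21 in the series, were chosen by their labels: 3 PBS-treated brains from day 28 and 3 from day 7. Injury was a controlled cortical impact over the right parieto-temporal cortex of male C57BL6J mice, in which a piston strikes the exposed brain, and every mouse of both groups received PBS, the vehicle of the complement inhibitor CR2-Crry, intravenously after the impact. Day 28 mice were 16 weeks old and were given further PBS doses intraperitoneally on later days, while day 7 mice were 13 weeks old and had the first dose only, so time after injury, age and repeated dosing cannot be told apart. Other brains of the series were used beside them. PBS TBI brains from day 3, of mice 12 weeks old, are given for single genes. In CR2-Crry TBI on day 28 and day 7 the same impact was followed by a complement inhibitor directed to sites of C3 activation. Its dose was 16 mg/kg, on the schedule of PBS, and these mice were 16 weeks old on day 28 and 13 weeks old on day 7. Sham mice had anesthesia and a scalp incision without impact at 12, 13 and 16 weeks of age. Each group held 3 samples.

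Expression was counted with the NanoString nCounter Mouse Neuroinflammation panel, in which a color-coded probe is counted for each transcript without amplification, and values below are the authors' normalized values in linear units. Of 757 probes 740 were tested, 687 of them with 1 gene symbol. A change is the mean log2 value on day 28 minus that on day 7, given with its standard error, and genes with an adjusted p under 0.05 (limma, Benjamini-Hochberg over all 740) count as called. C3, Gfap, Clec7a and Cd68 were not analysed here by name.

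After a contusion, microglia, the resident macrophages of the brain, and monocytes entering from blood take up debris and dead cells, astrocytes become reactive, and lost oligodendrocytes are replaced from dividing precursors. Complement is a cascade in which C1q binds targets and starts cleavage of C4 and C3. Its small fragments act on receptors of myeloid cells, and larger fragments tag material for uptake. Interferon-stimulated genes form a further program, which interferon or the sensing of nucleic acids switches on in many cell types. In a whole hemisphere, fewer cells of a type and less RNA per cell cannot be told apart.

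The samples carried the markers of brain tissue. Rbfox3, which encodes the neuronal nuclear protein NeuN, had values of 3331, 3493 and 3370.4 on day 28, against 3026, 3024 and 3232 on day 7, and the astrocyte glutamate transporter Slc1a3, the myelin gene Mog and the microglial gene Tmem119 were likewise measured in all 6 samples, the lowest value being 525 for Tmem119. The T cell receptor subunits Cd3d, Cd3e and Cd3g stayed between 12.5 and 37.5. Replicates lay closer to each other than to the other day: on all tested log2 values the distance between 2 samples was 6.09 to 7.85 within day 28, 7.86 to 8.18 within day 7 and 13.02 to 19.24 between the days.

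Expression on day 28 was mostly lower than on day 7. A change was called for 334 of 740 genes (45.1%), of which 289 were lower on day 28 (39.1% of those tested) and 45 higher (6.08%). The decreases were also deeper. More than 2-fold changes were called for 77 lower genes and 1 higher gene, and the median log2 change was -0.62 among lower and 0.19 among higher calls. All 3 day 28 samples lay below all 3 day 7 samples for 342 genes (46.2%) and above them for 76 (10.3%), so that the groups did not overlap for 418 (56.5%). Among the calls 329 had groups that did not overlap and 5 had groups that did.

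The direction of small changes depended on the scaling. The median value of a sample was 297.2 to 328.6 on day 28, against 396.3 to 424.0 on day 7, and centring each sample on its median log2 value removed a change of -0.39. The median change over all tested genes was -0.16 before centring and 0.23 after it. Centring thus took out more than the change of the median gene and shifted calls upward. Calls were then split into 346 higher and 125 lower genes, so 26.5% of calls were lower in place of 86.5%. Of 197 genes called both ways, 170 had 1 direction in both and 27 had opposite directions. Changes below are on the authors' scaling, and counts after centring are given for each list. Each list count on the authors' scaling stands beside 39.1% lower and 6.08% higher over all tested genes. Each list count after centring stands beside 346 higher and 125 lower of all 740 tested genes. Leaving out a library moved the number of higher calls furthest without day 7 replicate 1 or without day 7 replicate 2, to 29 in each case.

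**Figure D1:**
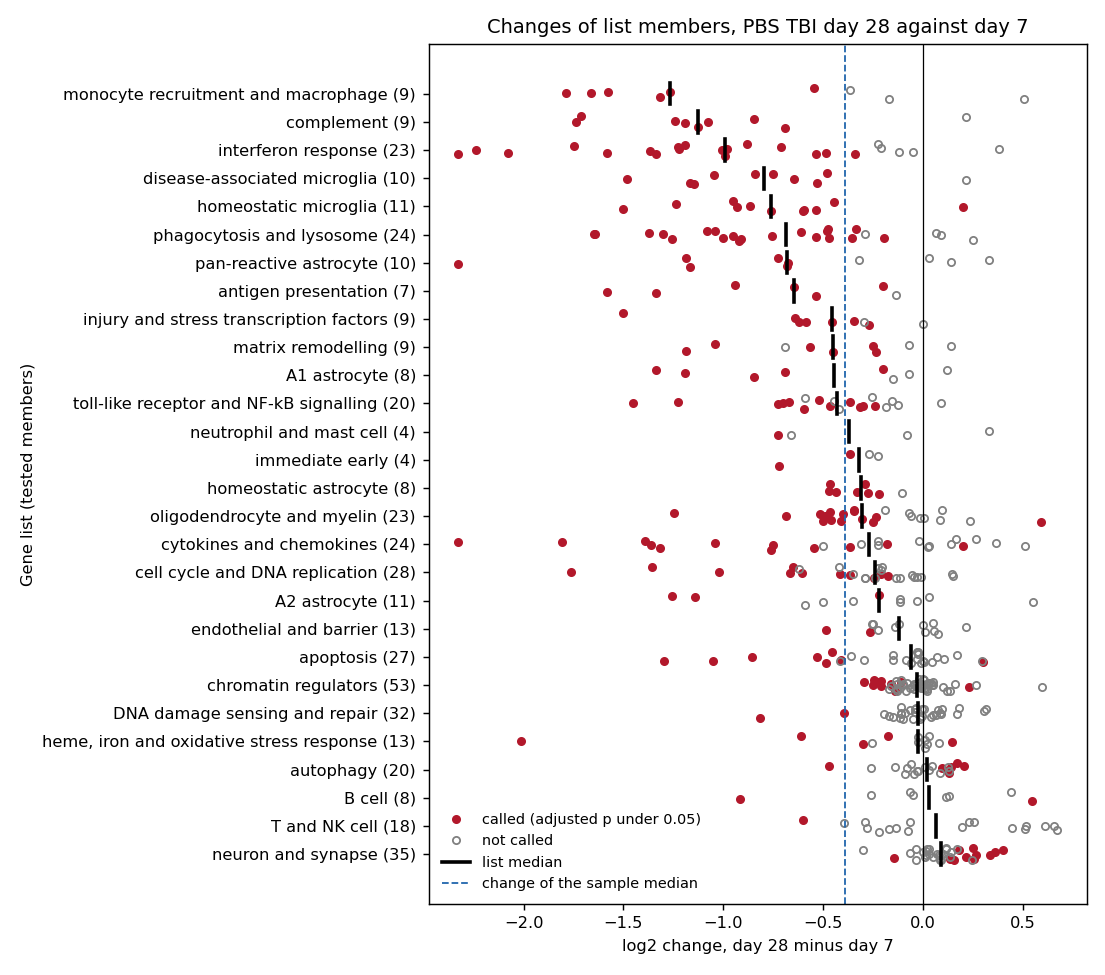
Each point is 1 tested member of a gene list, by its log2 change on day 28 minus day 7 in PBS TBI brains. Filled points were called, black bars are list medians and the dashed line is the change of the sample median, -0.39. Macrophage, complement and interferon lists have medians of -1.27, -1.13 and -0.99, while the neuron list has 0.09.

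Interferon-stimulated genes held the 3 lowest log2 changes among genes with a symbol. In the interferon response list 18 of 23 tested members were lower on day 28 and none higher, with a median log2 change of -0.99, against -0.16 over all tested genes, and after centring 13 were lower and 3 higher. Cxcl10, a chemokine that attracts activated T cells, had values of 93.3, 88.7 and 87.3 on day 28, against 688, 346 and 383 on day 7. The groups were far apart and the day 7 samples spread widely, with replicate 1 highest. The value was 5.02-fold lower on day 28 (log2 change -2.33 ± 0.22, adjusted p = 1.26e-07). Zbp1, a sensor of unusual nucleic acid structures that can start cell death, was 4.72-fold lower, at 32.5, 59.8 and 51.8 on day 28, against 302, 200.1 and 175 on day 7 (log2 change -2.24 ± 0.25, adjusted p = 1.06e-06). Irf7, the transcription factor that amplifies type I interferon responses, was at 86.2, 101 and 88.2 on day 28, against 551, 322 and 328 on day 7 (log2 change -2.08 ± 0.19, adjusted p = 1.26e-07). Day 7 replicate 1 was again the highest sample for both genes.

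The antiviral enzyme gene Rsad2 had 135, 119.5 and 109 on day 28, against 544, 359 and 340.1 on day 7 (log2 change -1.75 ± 0.19, adjusted p = 7.16e-07). Ifitm3, whose membrane protein blocks virus entry, had 964, 920.4 and 901 on day 28, against 2426, 2531 and 2229.5 on day 7 (log2 change -1.37 ± 0.13, adjusted p = 1.26e-07). For Gbp2, a guanylate-binding protein, the values were 173, 204 and 187 on day 28, against 547, 392 and 369 on day 7 (log2 change -1.19 ± 0.17, adjusted p = 1.45e-05). All of these genes were still above sham on day 28. Cxcl10 had values of 23.6, 23.6 and 21.8 in sham brains, and its log2 difference was 1.97 on day 28 minus sham (adjusted p = 4.96e-07) and 4.29 on day 7 minus sham (adjusted p = 2.05e-12). For Zbp1 the difference from sham was 0.76 on day 28 (adjusted p = 0.0174) and 3.00 on day 7 (adjusted p = 3.51e-09). Over all tested genes 44.5% were called higher than sham and 8.11% lower on day 28, and 57.3% higher and 9.46% lower on day 7. Both comparisons share the sham samples.

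Promoters of the list were searched for the interferon-stimulated response element, to which interferon-activated factors bind. The 3 windows below belong to genes described above whose match lies before the start site. They hold the 250 bases before the RefSeq start (build GRCm38.p6), 5′ to 3′ in the direction of the gene, and capitals mark the match.
Cxcl10 (chr5:92348890-92349139, minus strand): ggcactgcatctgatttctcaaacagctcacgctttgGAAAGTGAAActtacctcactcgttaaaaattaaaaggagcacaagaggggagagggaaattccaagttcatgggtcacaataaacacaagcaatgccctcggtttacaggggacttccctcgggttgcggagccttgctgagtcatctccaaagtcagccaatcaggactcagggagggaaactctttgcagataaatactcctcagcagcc
Rsad2 (chr12:26456453-26456702, minus strand): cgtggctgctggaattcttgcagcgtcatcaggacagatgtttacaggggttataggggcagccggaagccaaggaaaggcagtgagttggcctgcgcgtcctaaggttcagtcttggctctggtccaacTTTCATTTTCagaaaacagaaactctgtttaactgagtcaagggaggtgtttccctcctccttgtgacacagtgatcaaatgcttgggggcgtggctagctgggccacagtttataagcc
Gbp2 (chr3:142620413-142620662, plus strand): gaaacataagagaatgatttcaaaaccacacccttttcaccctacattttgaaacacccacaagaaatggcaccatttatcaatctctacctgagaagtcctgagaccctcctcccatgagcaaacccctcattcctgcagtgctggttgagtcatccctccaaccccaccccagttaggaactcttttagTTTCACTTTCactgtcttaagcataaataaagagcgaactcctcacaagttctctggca
The pattern was GAAA, any 2 bases and GAAA, on either strand, in a window of 250 bases before to 50 bases after the start. It was found for 10 of the 21 list members with a window in the RefSeq table (47.6%), for 7.39% of the 555 panel genes with a window and for 3.99% of all 27025 genes. The match began 213 bases before the start in Cxcl10, 120 in Rsad2 and 59 in Gbp2. Of the 10 members with a match 9 were called lower, with a median log2 change of -1.21, and of the 11 without a match 7 were, with a median of -0.49. Zbp1 and Irf7, among the most reduced genes described above, were not among the 10 with a match. A match is a run of letters in the reference and binding was not measured.

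**Figure D2:**
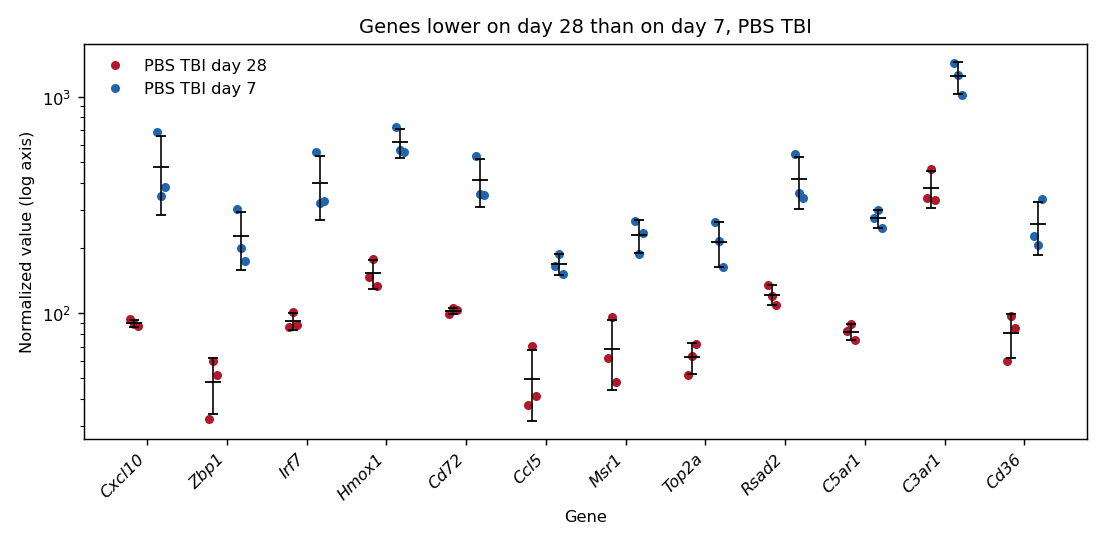
Points are normalized values of single brains on a log axis for the 12 called genes with the lowest log2 change, with the mean and SD of 3 samples per group. The groups do not overlap for any of the 12 genes, and Cxcl10 shows the largest gap.

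Hmox1, the enzyme that degrades heme, had values of 146, 177 and 133 on day 28, against 725, 567 and 555 on day 7, and was 4.04-fold lower on day 28 (log2 change -2.02 ± 0.17, adjusted p = 6.15e-08). Its sham values were 81.8, 79.5 and 79.5, and on day 3 it had stood at 2304, 2615 and 2862. Of 13 tested members of the heme, iron and oxidative stress list 4 were lower and 1 higher, with a median of -0.02, while over all tested genes 39.1% were lower and 6.08% higher. After centring 2 members were lower and 7 higher, beside 125 lower and 346 higher of all 740 tested genes. Nfe2l2, the transcription factor NRF2 that acts on many genes of this list, was lower (log2 change -0.61 ± 0.09), as were the thioredoxin reductase Txnrd1 (-0.30 ± 0.05) and sulfiredoxin Srxn1 (-0.17 ± 0.05), and both of these last changes turned positive after centring. The mitochondrial superoxide dismutase Sod2 was higher, at 4182, 4186 and 4516 on day 28, against 3892, 3904 and 3862 on day 7 (log2 change 0.14 ± 0.04, adjusted p = 0.00595).

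In the monocyte recruitment and macrophage list 6 of 9 tested members were lower (39.1% over all tested genes) and none higher, with a median of -1.27. After centring 5 were lower and 1 higher. The scavenger receptor Msr1 had 61.9, 95.4 and 48.0 on day 28, against 265, 187 and 235 on day 7 (log2 change -1.79 ± 0.21, adjusted p = 1.32e-06). Cd36, which takes up oxidized lipid and apoptotic cells, had 59.9, 96.4 and 85.4 on day 28, against 226, 206 and 337 on day 7 (log2 change -1.66 ± 0.22, adjusted p = 5.04e-06). The sialic acid receptor Siglec1, found on macrophages, was 2.99-fold lower (log2 change -1.58 ± 0.28, adjusted p = 0.000135). Day 28 replicate 2 was the highest of its group for all 3 genes and stayed below every day 7 sample.

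The chemokine axis for monocyte entry was also lower. Ccl2, the main ligand that attracts monocytes, had 97.4, 136 and 86.3 on day 28, against 329, 229.9 and 233 on day 7, and its receptor Ccr2 had 44.6, 79.0 and 68.1 on day 28, against 118, 227 and 126 on day 7. The log2 changes were -1.32 ± 0.30 (adjusted p = 0.00137) for the ligand and -1.27 ± 0.31 (adjusted p = 0.0027) for the receptor, whose highest value was day 7 replicate 2. Of the wider cytokine and chemokine list 11 of 24 tested members were lower and 1 higher, shares near the 39.1% and 6.08% over all tested genes, and 7 were lower and 6 higher after centring. The higher one, named after its values were seen, was the fractalkine gene Cx3cl1, a neuronal ligand of Cx3cr1, at 1562, 1528 and 1608 on day 28, against 1352, 1301 and 1443 on day 7 (log2 change 0.20 ± 0.05, adjusted p = 0.00519). Ccl5, made by T cells and macrophages, had 37.5, 70.3 and 41.2 on day 28, against 164, 188 and 151 on day 7 (log2 change -1.81 ± 0.34, adjusted p = 0.000217). The macrophage inflammatory proteins Ccl3 and Ccl4 had log2 changes of -1.36 ± 0.18 for Ccl3 and -1.39 ± 0.27 for Ccl4. Tgfb1, which restrains inflammation and promotes scarring, was at 232, 280.4 and 269 on day 28, against 594, 562 and 457 on day 7 (log2 change -1.04 ± 0.14, adjusted p = 5.72e-06).

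Complement genes were lower on day 28 in 8 of 9 tested cases, with a median log2 change of -1.13, and after centring 7 were lower and 1 higher. The 3 subunits of C1q were among the most abundant transcripts that fell. C1qc had values of 4513, 6108 and 4902 on day 28, against 13885, 11384 and 11352 on day 7 (log2 change -1.24 ± 0.12, adjusted p = 2.37e-07). C1qb had 4926, 6190.1 and 5223 on day 28, against 13583, 10981 and 11128 on day 7 (log2 change -1.13 ± 0.14, adjusted p = 2.8e-06), and C1qa had 3240.0, 4234 and 3509 on day 28, against 8703, 7148 and 7266 on day 7 (log2 change -1.08 ± 0.14, adjusted p = 4.01e-06). The subunits were 2.37-fold, 2.18-fold and 2.11-fold lower, and no day 28 sample reached a day 7 sample.

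Receptors for complement fragments were lower too. The C3a receptor gene C3ar1 had 341, 463 and 332 on day 28, against 1431, 1262 and 1021 on day 7 (log2 change -1.71 ± 0.16, adjusted p = 1.26e-07). For C5ar1, the receptor of the attractant C5a, the values were 82.2, 88.7 and 74.8 on day 28, against 274, 299.6 and 247 on day 7 (log2 change -1.74 ± 0.19, adjusted p = 6.07e-07). Itgam, a subunit of complement receptor 3, was lower as well, at 280.0, 361 and 297 on day 28, against 775, 719.7 and 643 on day 7 (log2 change -1.19 ± 0.14, adjusted p = 2.11e-06). Itgax, the corresponding subunit of complement receptor 4, had 61.9, 92.5 and 94.0 on day 28, against 71.4, 59.7 and 80.7 on day 7, with overlapping groups (log2 change 0.22 ± 0.18, adjusted p = 0.366). Both days stood well above the sham values of 12.6, 14.9 and 13.4 for Itgax.

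The C4 gene and the inhibitor of C1 were also lower. C4a had 1852, 2165 and 1739 on day 28, against 3215, 3907 and 3212 on day 7 (log2 change -0.84 ± 0.13, adjusted p = 4.68e-05), and its close copy C4b means that the probe may count both. Serping1, the C1 inhibitor, had 306, 382 and 306 on day 28, against 488, 668 and 459.6 on day 7 (log2 change -0.69 ± 0.15, adjusted p = 0.00111), and it was no longer called after centring. On day 28 the log2 difference from sham was 2.66 for C4a, 2.04 for C3ar1, 1.71 for C1qc and 0.54 for C5ar1, and each was called. On day 7 it was 3.50 for C4a, 3.76 for C3ar1, 2.95 for C1qc and 2.28 for C5ar1.

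**Figure D3:**
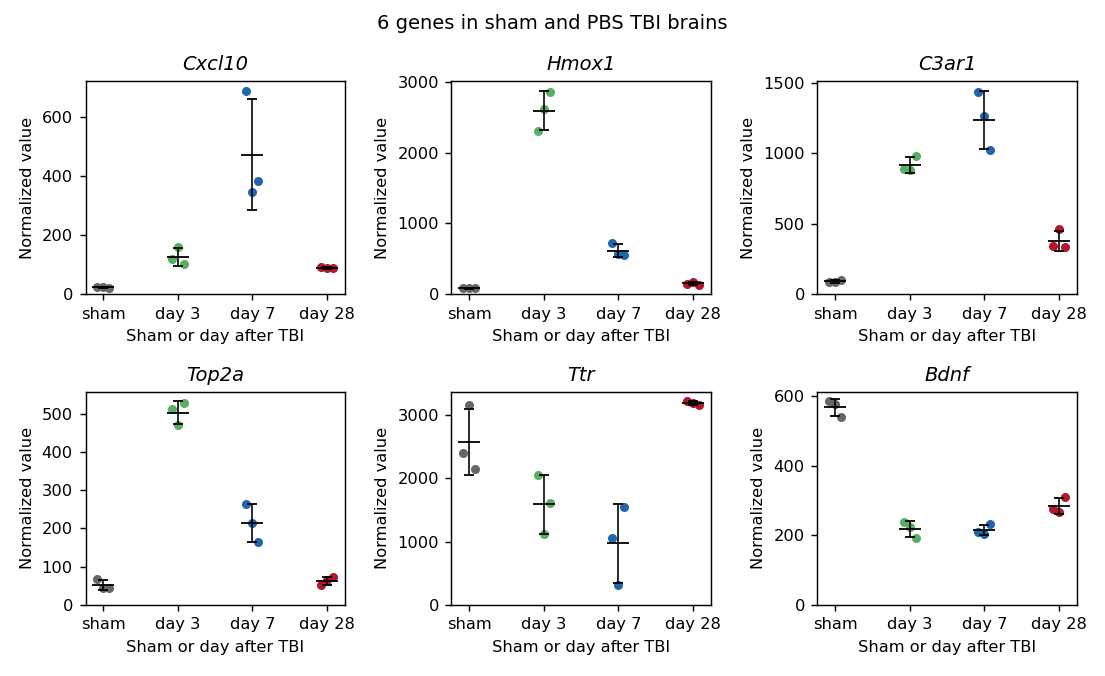
Normalized values of 6 genes in sham brains and in PBS TBI brains on days 3, 7 and 28, with single brains as points and the mean and SD of 3 samples per group. By group mean, Hmox1 and Top2a are highest on day 3, Cxcl10 and C3ar1 on day 7, Ttr is lowest on day 7, and Bdnf lies below sham on each of the 3 days.

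Microglial genes were lower whether they mark the resting or the activated state. In the homeostatic microglia list 10 of 11 tested members were lower and 1 higher, with a median of -0.76, and after centring 7 were lower and 1 higher. The median log2 difference of this list from sham was 0.72 on day 28 and 1.37 on day 7. Fcrls, an Fc receptor-like gene of microglia, had 839.9, 1075 and 963 on day 28, against 3271, 2423 and 2482 on day 7 (log2 change -1.50 ± 0.14, adjusted p = 1.26e-07). Csf1r, the receptor on which microglia depend for survival, had 1514, 1804 and 1671 on day 28, against 3450.2, 3242 and 2940.3 on day 7 (log2 change -0.95 ± 0.09, adjusted p = 1.26e-07). The change was smaller for Tmem119, at 525, 610.0 and 532 on day 28, against 978, 1030.3 and 1022 on day 7 (log2 change -0.86 ± 0.09, adjusted p = 5.96e-07), and for the fractalkine receptor Cx3cr1 (log2 change -0.76 ± 0.10, adjusted p = 4.45e-06). The member called higher was Mef2c, a transcription factor that neurons also express (log2 change 0.20 ± 0.08, adjusted p = 0.0396), named after its values were seen. Its call was lost without any 1 of the libraries but day 28 replicate 3 (adjusted p up to 0.125).

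The disease-associated microglia list, named for genes that microglia switch on around damaged tissue, had 9 of 10 tested members lower and none higher, with a median of -0.80, and after centring 6 were lower and 1 higher. Trem2, a lipid-sensing receptor, had 933, 1251 and 1011 on day 28, against 2616, 2297 and 2212 on day 7, and its signaling adaptor Tyrobp had 1721, 2318 and 2006 on day 28, against 5047, 4012 and 4280.3 on day 7. Their log2 changes were -1.16 ± 0.11 (adjusted p = 1.26e-07) and -1.15 ± 0.12 (adjusted p = 6.07e-07). The inhibitory receptor gene Lilrb4a was further from its day 7 level, at 281, 459.7 and 269.5 on day 28, against 1061, 894 and 799.7 on day 7 (log2 change -1.48 ± 0.22, adjusted p = 1.81e-05), and its log2 difference from sham on day 28 was still 2.91 (adjusted p = 2.92e-09). Cd72, a receptor known best from B cells and one of the 12 lowest genes, had 98.4, 105 and 104 on day 28, against 533, 356 and 351 on day 7 (log2 change -1.99 ± 0.17, adjusted p = 9.32e-08).

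Among genes of phagocytosis and the lysosome 20 of 24 were lower and none higher, with a median of -0.69, and after centring 13 were lower and 3 higher. Grn, which encodes the lysosomal protein progranulin, had 1257, 1640.3 and 1362 on day 28, against 4979.9, 4153 and 4148 on day 7 (log2 change -1.64 ± 0.11, adjusted p = 3.5e-09). The high-affinity IgG receptor gene Fcgr1 had 266, 356 and 256 on day 28, against 1095, 863 and 786 on day 7 (log2 change -1.65 ± 0.14, adjusted p = 7.88e-08). Fcer1g, the signaling chain shared by such receptors, fell by 1.30 on the log2 scale (adjusted p = 3.8e-07), and Ncf1, a subunit of the oxidase that makes superoxide, fell by 1.26 (adjusted p = 1.26e-07). Toll-like receptor and NF-kB genes were lower in 12 of 20 cases (39.1% over all tested genes) and higher in none. After centring, however, 3 were lower and 3 higher. Tlr2, which senses bacterial lipoproteins, had 50.7, 78.1 and 74.8 on day 28, against 208, 197 and 149 on day 7 (log2 change -1.45 ± 0.20, adjusted p = 1.14e-05), and the RNA sensor Tlr7 had 84.2, 113 and 103 on day 28, against 252, 217 and 229 on day 7 (log2 change -1.23 ± 0.16, adjusted p = 4.01e-06).

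Antigen presentation genes were lower in 6 of 7 cases (39.1% over all tested genes), and in 3 after centring with 1 higher. Ifi30, a thiol reductase of the lysosome that prepares antigen, had 249.5, 339 and 256 on day 28, against 871, 923 and 725 on day 7 (log2 change -1.58 ± 0.14, adjusted p = 1.26e-07). Psmb8, a subunit of the immunoproteasome, had 261, 355 and 294 on day 28, against 886, 766 and 649 on day 7 (log2 change -1.34 ± 0.14, adjusted p = 5.59e-07).

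Reactive astrocyte genes changed unevenly. Of the pan-reactive list 6 of 10 tested members were lower (39.1% over all tested genes) and none higher. After centring 3 were lower and 1 higher. The intermediate filament gene Vim, present in reactive astrocytes and in macrophages, had 2128, 2991 and 2313 on day 28, against 5920.0, 5458 and 5150.4 on day 7 (log2 change -1.17 ± 0.13, adjusted p = 1.31e-06). Timp1, an inhibitor of matrix proteases, had 46.7, 77.1 and 52.8 on day 28, against 109.6, 193 and 105 on day 7 (log2 change -1.19 ± 0.29, adjusted p = 0.00273). The protease inhibitor gene Serpina3n had 1209, 1831 and 1202 on day 28, against 1998, 2590.2 and 2128 on day 7 (log2 change -0.68 ± 0.21, adjusted p = 0.0133), and it lost its call without day 28 replicate 1 (adjusted p = 0.0632), without day 28 replicate 3 (0.0638) and without day 7 replicate 2 (0.0653). Its log2 difference from sham was still 3.63 on day 28 (adjusted p = 1.63e-10).

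The lists that divide reactive astrocytes into states called A1 and A2 had 5 of 8 and 3 of 11 tested members lower (39.1% over all tested genes), and neither had a higher call. After centring the A1 list had 3 lower and 2 higher and the A2 list 2 lower and 4 higher. Tgm1, a transglutaminase of the A2 list, had 103, 179 and 102 on day 28, against 336, 243 and 316 on day 7 (log2 change -1.26 ± 0.27, adjusted p = 0.000769). The membrane gene Emp1, of the same list, fell by 1.14 (adjusted p = 5.15e-05). Genes of astrocytes in their normal role changed little in size: 7 of 8 were lower, with a median of -0.31, but after centring none was lower and 2 were higher. The gap junction gene Gja1 had 7909, 7917 and 8351 on day 28, against 11768, 12248 and 9671 on day 7 (log2 change -0.47 ± 0.07, adjusted p = 3.21e-05). The folate enzyme gene Aldh1l1 was at 1071, 1098 and 1059.8 on day 28, against 1461, 1289 and 1312 on day 7 (log2 change -0.33 ± 0.08, adjusted p = 0.00142) and turned positive after centring.

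Cell cycle genes were lower in 11 of 28 tested cases, a share near the 39.1% over all tested genes, and higher in none. After centring 3 were lower and 8 higher, and the higher share was below that of all tested genes (346 of 740). Top2a, the topoisomerase of dividing cells, had 51.7, 63.6 and 71.9 on day 28, against 264, 214 and 163 on day 7 (log2 change -1.76 ± 0.21, adjusted p = 1.87e-06). Rrm2, a subunit of the enzyme that supplies deoxynucleotides, had 35.5, 34.7 and 35.5 on day 28, against 115, 90.7 and 70.5 on day 7 (log2 change -1.36 ± 0.18, adjusted p = 5.72e-06). The day 28 values of both genes lay near those of sham, which were 66.8, 43.7 and 42.7 for Top2a and 33.8, 35.8 and 31.0 for Rrm2, and neither difference from sham was called (adjusted p = 0.23 and 0.756). The checkpoint kinase gene Chek2 fell by 1.02 (adjusted p = 0.000238). The E2F motif of cell cycle promoters, written as TTT, any base and GCGC on either strand, was found in 7 of 24 members with a window (29.2%), in 3.24% of panel genes and in 1.57% of all genes. Of those 7 members 4 were called lower, with a median log2 change of -0.21, and of the 17 without a match 7 were, with a median of -0.29.

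Called oligodendrocyte genes were lower with 1 exception, and the balance depended on the scaling. Of 23 tested members 14 were lower and 1 higher (39.1% lower and 6.08% higher over all tested genes), with a median of -0.30. After centring 2 were lower and 7 higher, and the higher share was below that of all tested genes (346 of 740). Enpp6, a marker of newly forming oligodendrocytes, had 129, 159 and 168 on day 28, against 364, 412 and 305 on day 7 (log2 change -1.25 ± 0.14, adjusted p = 6.81e-07). Its sham values were 148, 128 and 116, and the day 28 difference from sham was not called (adjusted p = 0.196). Opalin, a gene of mature myelinating cells, ran the other way, with 1288, 986 and 1212 on day 28, against 855, 658 and 799.7 on day 7 (log2 change 0.59 ± 0.17, adjusted p = 0.00785). Ugt8a, which makes the myelin lipid galactosylceramide, was lower at 909.9, 744 and 930.4 on day 28, against 1231, 1193 and 1217 on day 7 (log2 change -0.50 ± 0.12, adjusted p = 0.00226), a call lost after centring.

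In the neuron and synapse list 10 of 35 tested members were higher (6.08% over all genes) and 1 lower (39.1%), with a median of 0.09, and after centring 33 were higher and none lower. Without day 7 replicate 1 the count of higher members was 5. Bdnf, a growth factor for neurons, had 275, 267 and 309 on day 28, against 209.9, 202 and 232 on day 7 (log2 change 0.40 ± 0.11, adjusted p = 0.00631). It was still below the sham values of 586, 576 and 539. The glutamate receptor genes Grin2a and Grm2 had 566, 569.6 and 497 for Grin2a and 597, 555 and 514 for Grm2 on day 28, against 386, 429 and 459 for Grin2a and 430.2, 447 and 440.2 for Grm2 on day 7. Their log2 changes were 0.36 ± 0.11 (adjusted p = 0.00963) and 0.34 ± 0.08 (adjusted p = 0.00239), and without day 7 replicate 1 Grin2a lost its call (adjusted p = 0.055). Fgf13, an intracellular partner of sodium channels, had 2895, 2885 and 3142 on day 28, against 2460.5, 2459.8 and 2504 on day 7 (log2 change 0.26 ± 0.04, adjusted p = 2.3e-05), a small change with little spread. The synaptic adhesion gene Nlgn1 rose by 0.26 (adjusted p = 0.000635). The tubulin gene Tubb3 was the member called lower (log2 change -0.15 ± 0.06, adjusted p = 0.0396), and it turned positive after centring. Its call was lost without day 28 replicate 1 (adjusted p = 0.124), day 28 replicate 2 (0.0825), day 7 replicate 2 (0.178) or day 7 replicate 3 (0.0551).

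Of the immediate early genes, which neurons switch on with activity, Arc and Egr1 stood far below sham on both days. The median log2 difference from sham over the 4 tested genes was -2.13 on day 28 and -1.66 on day 7. Arc had 345, 288 and 416 on day 28, against 246, 366 and 808 on day 7 (log2 change -0.27 ± 0.28, adjusted p = 0.465), while sham brains had 2583, 2136 and 2612. Egr1 had 1784, 1543 and 1885 on day 28, against 1328, 2023 and 3079 on day 7 (log2 change -0.22 ± 0.19, adjusted p = 0.375), and sham brains had 6598, 6087 and 6484. The groups overlapped for both genes, and day 7 replicate 3 was the highest of the 6 samples in each. Without that replicate the log2 change was 0.21 for Arc and 0.08 for Egr1. Fos was lower on day 28, at 217, 205 and 282 on day 28, against 303, 309.6 and 599.5 on day 7 (log2 change -0.72 ± 0.24, adjusted p = 0.0173), but the call was lost without day 7 replicate 3 (log2 change -0.40, adjusted p = 0.134), without day 28 replicate 1 (0.0587) and without day 28 replicate 2 (0.0647). Jun had 875, 908 and 991 on day 28, against 1212, 1112 and 1247 on day 7 (log2 change -0.36 ± 0.07, adjusted p = 0.000369), with a positive change after centring. Fos and Jun were the called members of the list, and after centring none was called.

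The largest increase was that of Ttr, the thyroxine carrier transthyretin, which the choroid plexus makes in large amounts. It had 3219, 3195 and 3154 on day 28, against 1056, 308 and 1547 on day 7, a 4.01-fold higher level (log2 change 2.00 ± 0.36, adjusted p = 0.000182). The day 28 samples were nearly equal, and the day 7 samples spread widely, with replicate 2 lowest. Sham brains had 2406, 3162 and 2152, so the day 28 values were close to sham and the day 7 values below it. Ttr was the only choroid plexus marker on the list, so the part of choroid plexus tissue in these values was not tested.

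**Figure D4:**
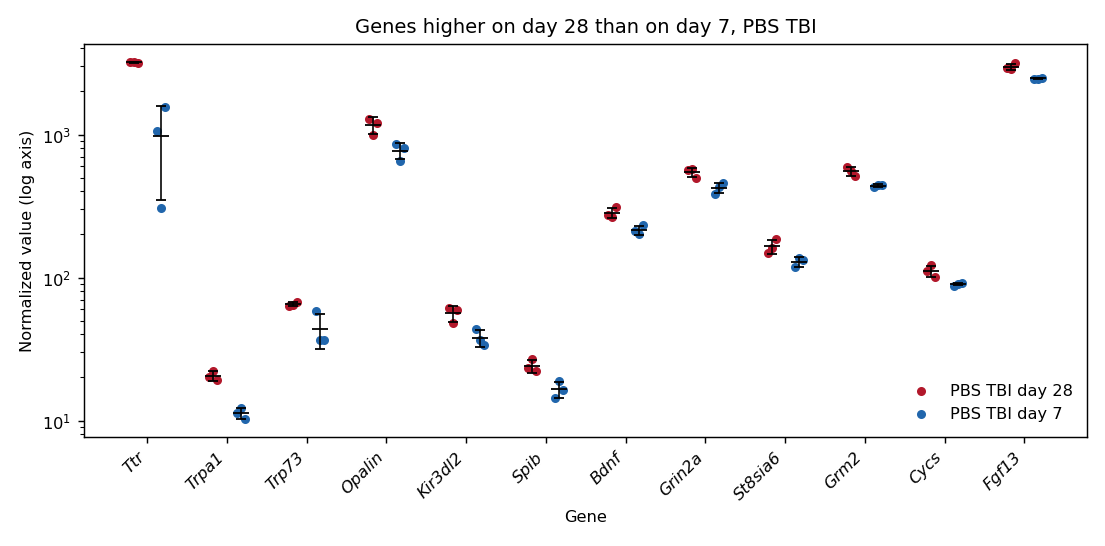
Points are normalized values of single brains on a log axis for the 12 called genes with the highest log2 change, with the mean and SD of 3 samples per group. The groups do not overlap for any of the 12, and apart from Ttr every mean differs by less than 2-fold.

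Several of the other increases lay at low values and depended on single libraries. The ion channel gene Trpa1 had 20.3, 22.2 and 19.2 on day 28, against 11.4, 12.2 and 10.2 on day 7 (log2 change 0.87 ± 0.30, adjusted p = 0.0258), and its call was lost without day 28 replicate 1 (adjusted p = 0.0564), day 28 replicate 2 (0.0702), day 7 replicate 1 (0.0545) or day 7 replicate 3 (0.0733). The transcription factor gene Spib had 23.3, 27.0 and 22.1 on day 28, against 14.5, 18.8 and 16.3 on day 7 (log2 change 0.55 ± 0.21, adjusted p = 0.0366), with the call lost without day 28 replicate 1 (0.0652), day 28 replicate 2 (0.123), day 7 replicate 1 (0.128) or day 7 replicate 3 (0.0749). Trp73, a relative of p53, lost its call without any 1 of the libraries but day 7 replicate 1 (adjusted p up to 0.137). The cytochrome c gene Cycs lost it without any but day 28 replicate 3 (up to 0.142). Kir3dl2, an immune receptor gene, lost it without day 28 replicate 1 or 3 or day 7 replicate 2 or 3 (up to 0.0787), and the sialyltransferase gene St8sia6 without day 28 replicate 3 or day 7 replicate 1 (up to 0.0933).

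Few lymphocyte genes were called, and of 24 T and NK cell members with a symbol on the panel 18 passed the filter. Standard errors of the log2 change were 0.31 for Cd3d, 0.28 for Cd3e and 0.22 for Cd3g, against a median of 0.11 over all tested genes. Moderate changes of such genes could therefore go uncalled. Of 18 tested T and NK cell members 1 was lower and none higher, and of 8 B cell members 1 was lower and 1 higher (39.1% lower and 6.08% higher over all tested genes). The lower members were Lag3, a receptor of T cells that microglia and neurons also express, at 336, 484 and 483 on day 28, against 727, 647 and 583 on day 7 (log2 change -0.60 ± 0.13, adjusted p = 0.00107), and the adaptor gene Blnk, at 207, 272 and 252 on day 28, against 451, 469 and 453 on day 7 (log2 change -0.92 ± 0.15, adjusted p = 8.24e-05). After centring 6 T and NK cell members were higher and none lower, and 2 B cell members were higher and 1 lower. In the neutrophil and mast cell list 1 of 4 was lower, Csf3r (log2 change -0.73 ± 0.18), and after centring none was called. Lcn2, an iron-binding protein of neutrophils and astrocytes, had 1239, 3317 and 1171 on day 28, against 825, 2754 and 1059 on day 7 (log2 change 0.33 ± 1.00, adjusted p = 0.831). Lcn2 varied in sham brains too, at 34.6, 168 and 2687.

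Injury and stress genes, most of them transcription factors and cell cycle brakes, were lower in 7 of 9 tested cases and higher in none, with a median of -0.45, and after centring 2 were lower and 1 higher. Without day 7 replicate 3 the count of lower members was 4. Atf3, a transcription factor that injured cells switch on, had 83.2, 135 and 113 on day 28, against 322, 281 and 319.7 on day 7 (log2 change -1.50 ± 0.25, adjusted p = 6.81e-05), and sham brains had 29.9, 33.2 and 50.2. Matrix remodelling genes were lower in 6 of 9 cases (39.1% over all tested genes) and higher in none, with a median of -0.45. After centring 2 were lower and 1 higher. The changes of Timp1 and Tgfb1 were the largest in this list.

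In 5 other lists the share of lower members was below the 39.1% over all tested genes, where 6.08% were higher. Apoptosis genes were lower in 7 of 27 cases and higher in 1, led by Bcl2a1a, a survival gene of myeloid cells, which fell by 1.30 (adjusted p = 1.07e-05), and the initiator caspase gene Casp8, which fell by 1.05 (adjusted p = 1.14e-05). DNA repair genes were lower in 2 of 32 cases and higher in none, with the damage-marking histone gene H2ax at 179.6, 183 and 140.0 on day 28, against 340.3, 258 and 286 on day 7 (log2 change -0.81 ± 0.14, adjusted p = 0.000119). After centring 14 apoptosis genes were higher and 2 lower, and 25 DNA repair genes were higher and 1 lower. Chromatin regulators were lower in 9 of 53 and higher in 1, with a median of -0.03, and after centring 48 were higher and none lower. Without day 7 replicate 2 the count of lower chromatin regulators was 5. Autophagy genes were higher in 5 of 20 cases and lower in 1, and after centring 18 were higher and none lower. The count of higher autophagy genes was 3 without day 28 replicate 2, day 28 replicate 3 or day 7 replicate 2, and that of lower ones was 3 without day 28 replicate 2 and 2 without day 28 replicate 3. The mitophagy receptor gene Bnip3 rose by 0.21 (adjusted p = 0.000178), and Lamp2, a lysosomal membrane gene, fell by 0.47 (adjusted p = 8.9e-07). Endothelial genes were lower in 2 of 13 cases and higher in none, and after centring 6 were higher and none lower. The tight junction gene Cldn5 had 1298, 969 and 1134 on day 28, against 1099, 1382 and 915 on day 7, with overlapping groups (log2 change 0.01 ± 0.14, adjusted p = 0.959).

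The change between the days was set against that in CR2-Crry TBI brains, which share no sample with the PBS TBI brains. In CR2-Crry TBI 185 of 740 genes were called between day 28 and day 7 (25.0%), 165 lower (22.3%) and 20 higher (2.70%). The difference of the 2 changes was called for 0 genes (0.00%), with a lowest adjusted p of 0.114. An unadjusted p under 0.05 was found for 144 genes, of which 128 had the lower change in PBS TBI, and the median difference over all tested genes was -0.10. With sample weights in the fit 78 genes were called, without PBS TBI day 28 replicate 2 there were 27, and without PBS TBI day 7 replicate 3 there were 3. Limma voom called 0.

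The 5 genes with the smallest p for that difference were Ifi30, Lgmn, Vim, Msr1 and Srgn. Ifi30 changed by -1.58 ± 0.14 in PBS TBI and by -0.66 ± 0.14 in CR2-Crry TBI, where its values were 360.2, 232 and 312 on day 28, against 467, 450.4 and 489.6 on day 7. The day 28 values of Ifi30 overlapped between the treatments, and all 3 day 7 values in PBS TBI lay above those in CR2-Crry TBI. Vim changed by -1.17 ± 0.13 in PBS TBI and by -0.41 ± 0.13 in CR2-Crry TBI, at 2983, 2206 and 3198 on day 28, against 3594, 3498 and 3926 on day 7. For Msr1 the changes were -1.79 ± 0.21 in PBS TBI and -0.68 ± 0.21 in CR2-Crry TBI. The lysosomal protease gene Lgmn changed by -0.91 ± 0.06 in PBS TBI and by -0.58 ± 0.06 in CR2-Crry TBI, and the proteoglycan gene Srgn by -0.85 ± 0.13 in PBS TBI and -0.15 ± 0.13 in CR2-Crry TBI. The differences ran from -1.10 ± 0.29 for Msr1 to -0.34 ± 0.08 for Lgmn, each with an adjusted p of 0.114. Ttr changed by 2.00 ± 0.36 in PBS TBI and by 0.11 ± 0.36 in CR2-Crry TBI, a difference of 1.89 ± 0.52 (adjusted p = 0.114). Cxcl10 changed by -2.33 ± 0.22 in PBS TBI and by -1.91 ± 0.22 in CR2-Crry TBI, a difference of -0.42 ± 0.31 (adjusted p = 0.461).

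**Figure D5:**
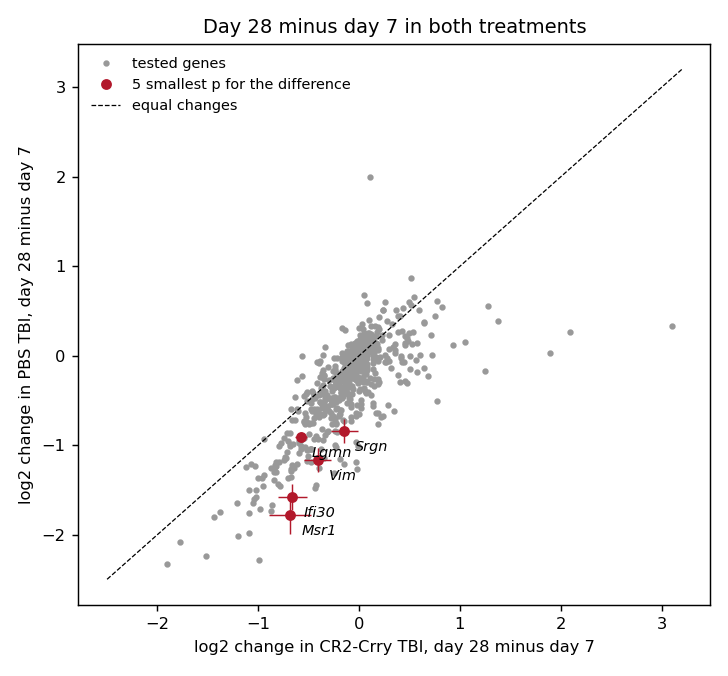
Each point is 1 of 740 tested genes, by its log2 change on day 28 minus day 7 in PBS TBI (vertical) and in CR2-Crry TBI (horizontal), and the dashed line marks equal changes. The 5 genes with the smallest p for the difference, with standard errors, lie below the line, and no difference was called.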

How the data were processed

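RNA of the right hemisphere was hybridized by the study to the nCounter Mouse Neuroinflammation panel. The authors deposited linear signal values from nSolver, which they had thresholded for background and scaled to housekeeping genes. Within a sample the values were multiples of 1 step (tolerance 0.0075), with totals of 824317 to 908386 steps on day 28 and 916751 to 995726 on day 7. Replicates were taken as separate mice.

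Probes with a value over 20 in at least 3 of 21 samples were tested. Limma 3.58.1 in R 4.3.3 fitted log2 values, with no pseudocount, as 7 group means over all 21 samples, with moderated variances that follow a trend on the mean, and Benjamini-Hochberg adjustment was run over all tested probes. The fit was tested on simulated data. Python 3.11.15, numpy 2.4.6, pandas 2.3.3 and matplotlib 3.10.9 were used for tables and figures.

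Members, lists and the naming rule were chosen with earlier results of these data known. The rule took the 12 highest and 12 lowest called genes with 1 symbol and groups that did not overlap, the complement list, up to 6 members of each other list by size of change, and the 5 smallest p for the difference between treatments. Not every gene of the rule is printed. Alternatives were the moderation, the samples and weights, the adjustment, a pseudocount, filters, scalings, the replicate block, limma voom and leaving out each replicate.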

Additional observations from a re-analysis of the deposited data

How the results depend on the processing

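Scaling mattered most. Centring each sample on its median gave 346 higher and 125 lower calls, against 45 and 289 on the authors' scaling. Rescaling to ribosomal protein genes gave 88 higher calls, and rescaling to the sample total gave 227 higher and 171 lower (both chosen after seeing the data). The median change over all tested genes was -0.16 on the authors' scaling, 0.23 after centring and -0.07 with ribosomal protein genes. Of 180 genes (those of the naming rule, the cell type markers and 2 more) 30 turned sign after centring, and of the 136 called ones 48 lost their call, 12 of these with a turned sign. The log2 changes that turned were Txnrd1 0.089, Osgin1 0.13, Srxn1 0.22, H2-T23 0.19, Fkbp5 0.24, Cd109 0.036, Aldh1l1 0.059, Gdpd2 0.10, Slc1a3 0.11, Islr2 0.088, Jun 0.024, Arc 0.12, Egr1 0.16, Gadd45a 0.046, Jam2 0.12, Slc2a1 0.14, Icam2 0.14, Emcn 0.17, Tnfrsf17 0.13, Tpsb2 0.31, Adamts16 0.14, Topbp1 0.19, Hdac1 0.10, Kdm4a 0.14, Kat2b 0.14, Plekhm1 0.13, Atg7 0.25, Tubb3 0.24, Mag 0.084 and Cd3d 0.11. With the sample total they were Srxn1 0.059, H2-T23 0.030, Fkbp5 0.081, Egr1 0.007, Emcn 0.008, Tpsb2 0.15, Topbp1 0.036, Atg7 0.091 and Tubb3 0.086, and with ribosomal protein genes Tpsb2 at 0.009. A Welch test without moderation called 131 genes, 6 higher and 125 lower, the cause of which was not tested. Of the 136 called genes 79 lost their call under it. The neuron and synapse list then had 0 higher members in place of 10. The homeostatic astrocyte list had 0 lower members in place of 7, and the chromatin list 0 in place of 9. For the difference between PBS TBI and CR2-Crry TBI, sample weights called 78 genes, where the main fit called 0. Limiting the adjustment to the 144 genes whose unadjusted p was under 0.05 called all 144, which follows by construction.

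Leaving out 1 library gave 282 to 318 calls, 29 to 35 of them higher and 253 to 283 lower, and 0 to 27 for the difference between treatments. Of 136 called genes 25 lost their call in at least 1 such fit. Genes that changed sign ranged over Arc -0.653 to 0.205, Cldn5 -0.131 to 0.166, Egr1 -0.528 to 0.079, Lcn2 -0.154 to 0.853, Pecam1 -0.054 to 0.204, Rag1 -0.12 to 0.322, Tnfrsf13c -0.058 to 0.309, Tpsb2 -0.627 to 0.233 (log2 change). The values gave no clear pairing of samples by replicate number. Deviations of day 28 and day 7 samples of the same number correlated at -0.093, 0.097 and 0.229, and of the day 28 samples only number 3 correlated best with its own number. With 3 samples per group such correlations cannot exclude a pairing. With the replicate block 328 genes were called, 43 higher and 285 lower. The other alternatives kept the counts over all genes within 1.5 times. Counts within lists moved past that under some of them, for 9 of 56 counts when the fit held the PBS TBI day 28 and day 7 samples alone, 5 with no trend in the moderation, 4 with sample weights and 8 with the narrower adjustment, each by 1 or 2 genes. The Welch test moved 31 of the 56 counts, by up to 10 genes. Centring moved 46 by up to 47, the sample total 34 by up to 29 and ribosomal protein genes 14 by up to 9. Leaving out 1 library moved 3 to 10 of the counts, by up to 5 genes. An edgeR test on recovered counts and scaling to housekeeping genes were not run, the second because 0 of those genes were found by name. Values near 20 rest on about as many counted molecules, which limits the low genes, Trpa1 and Spib among them.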
